A study of Rattus norvegicus with 12 samples.

Results

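Expression in rat terminal end buds was compared between 49 and 35 days of age after 1 µg diethylstilbestrol (DES, a synthetic estrogen) at birth. The comparison rests on 4 of the series' 12 arrays, 2 from rats aged 49 days and 2 from rats aged 35 days, chosen by their titles. It covers the 12557 probes that the authors called present or marginal, here termed detected, on both arrays of at least one of the 2 ages. Keeping the brightest probe of each gene left 11661 features to test, 5352 genes with a symbol and 6309 probes with no name here. All animals were inbred female Sprague-Dawley rats given 1 subcutaneous injection in sesame oil within a day of birth, and killed at 35 or 49 days. The oil held 1 µg DES in the groups compared, 100 µg DES in 2 further groups, and no DES in the oil controls, with 2 rats and 2 arrays at each age. Per the labels, each array carries RNA of a separate rat, so the age groups hold different animals and n is 2 arrays a group throughout. Cells of the end buds were cut out by laser microdissection from abdominal mammary glands, and less than 100 ng of their RNA was linearly amplified before hybridisation to a 1-colour Agilent array.

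Terminal end buds are the club-shaped tips that lead the growth of mammary ducts through the fat pad during puberty. Ovarian estrogen drives that growth, in part through amphiregulin, a ligand of the epidermal growth factor receptor. Milk proteins such as caseins are made chiefly by alveolar cells of the pregnant and lactating gland, where prolactin acts through the transcription factor Stat5.

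Expression values are given as relative signal, a probe's processed signal divided by the median of its array. They are compared only within a probe, or between sums over the same probes, which the brightest probes lead. Differences are on the log2 scale, 49 minus 35 days, with the standard error (SE) from a limma fit that takes its spread from all 12 arrays. A gene was called risen or fallen at an adjusted p below 0.05. The median raw signal was 23.6 and 24.7 on the 49-day arrays, against 38.95 and 27.25 on the 35-day arrays. Detection on both arrays was 57.5% of probes at 49 days and 60.3% at 35 days. The 4 arrays were scanned on 4 different days, and no day held both ages, so scan day and age cannot be told apart within DES 1 µg. The 2 oil arrays at 49 days stand apart from the rest of the series, where the upper quartile of raw signal was 155 and 142.5, while on the other 10 arrays it was 210 to 333.

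Of named genes detected on all 4 arrays, the milk genes Glycam1, Csn2 and Csn1s2a fell most, and Acsm3, Padi2 and Msln rose most. In all, 527 features passed the test, 4.52% of those tested, of which 429 rose (3.68%) and 98 fell (0.84%). Values of the 49-day arrays lay outside the range of the 35-day arrays for all 527. With 2 arrays a group this largely follows from the call itself and adds no support, and the share over all tested features was not counted. The change was at least 2-fold for 120 rises and 62 falls, and 476 of the 527 were detected on all 4 arrays. The median difference of all tested features was 0.08. Scaling by the 75th percentile moved that median to -0.04 and gave 313 rises and 201 falls, so rises made up 60.9% of calls, against 81.4% with median scaling. Without the oil arrays at 49 days, which enter only through the shared spread, 363 features passed, and a fit of the 4 arrays alone called 54. With scan day as a fixed block, which leaves 1 residual degree of freedom, limma called 0 features, against 1082 at an unadjusted p below 0.05. Without the second 35-day array 156 passed, and without the first and the second 49-day array 126 and 221 passed.

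The promoters of 4 milk genes that fell are shown because each holds the Stat motif TTCNNNGAA, printed in capitals. The sequences are RefSeq's for build GRCr8 and run from 250 bases before to 50 after the start of each gene.
Csn2 (chr14:20601574-20601873, plus strand): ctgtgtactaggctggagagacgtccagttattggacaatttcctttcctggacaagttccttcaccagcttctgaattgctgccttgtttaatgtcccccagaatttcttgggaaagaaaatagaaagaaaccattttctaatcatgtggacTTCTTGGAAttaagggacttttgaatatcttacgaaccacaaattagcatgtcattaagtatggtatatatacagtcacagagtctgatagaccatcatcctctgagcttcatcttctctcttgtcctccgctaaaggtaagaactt
Csn1s2a (chr14:20574422-20574721, minus strand): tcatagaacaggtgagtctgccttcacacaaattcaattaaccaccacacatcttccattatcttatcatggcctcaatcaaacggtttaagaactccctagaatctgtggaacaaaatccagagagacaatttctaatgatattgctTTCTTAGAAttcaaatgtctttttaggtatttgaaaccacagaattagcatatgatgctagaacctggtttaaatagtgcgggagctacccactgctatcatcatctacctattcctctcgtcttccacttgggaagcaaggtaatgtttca
Csn1s1 (chr14:20638800-20639099, minus strand): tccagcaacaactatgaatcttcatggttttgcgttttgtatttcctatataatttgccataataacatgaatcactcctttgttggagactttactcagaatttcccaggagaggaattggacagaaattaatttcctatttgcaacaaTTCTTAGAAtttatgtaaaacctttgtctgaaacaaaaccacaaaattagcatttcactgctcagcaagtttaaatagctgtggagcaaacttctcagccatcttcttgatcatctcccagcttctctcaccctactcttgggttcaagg
Glycam1 (chr7:136561250-136561549, minus strand): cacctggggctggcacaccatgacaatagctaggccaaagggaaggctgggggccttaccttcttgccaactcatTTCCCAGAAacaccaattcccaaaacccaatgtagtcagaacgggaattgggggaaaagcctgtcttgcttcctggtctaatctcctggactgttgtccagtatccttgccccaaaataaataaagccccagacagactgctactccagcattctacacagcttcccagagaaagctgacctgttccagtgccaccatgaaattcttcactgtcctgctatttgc
The motif begins at position -97 in Csn2, -102 in Csn1s2a, -100 in Csn1s1 and -175 in Glycam1. It was present, on either strand, in 8 of the 47 promoters matched to genes that fell (17%), 13 of the 151 matched to genes that rose (8.61%), 6.58% of the 4365 matched to all tested genes and 8.68% of all 27457 promoters in the table. The promoter of Wap held no match to it in these 300 bases, and Fabp3 was not among the named genes with a match. Gcnt3, Smim38 and Rarb, which rose, were among them. A match describes the letters only.

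Of 22 milk and alveolar genes tested, 7 fell, with Csn2, Csn1s2a, Wap, Fabp3 and Glycam1 each lower by more than 4-fold at 49 days. Over all tested features, 0.84% fell and 3.68% rose. Csn2, which encodes beta-casein, had a relative signal of 1.75 and 2.04 in 49-day buds, against 31.3 and 25.4 in 35-day buds. The difference was -3.90 ± 0.21 (SE, adjusted p = 0.00011), or 14.9-fold lower at 49 days. Csn1s2a, an alpha-S2 casein gene, read 2.37 on both 49-day arrays and 28.2 and 37.8 on the 35-day arrays, 13.8-fold lower at 49 days (difference -3.78 ± 0.25, adjusted p = 0.00022). Wap, the whey acidic protein of rodent milk, had 0.992 and 0.773 at 49 days, against 3.49 and 5.03 at 35 days, 4.78-fold lower (adjusted p = 0.0017). Fabp3, a fatty acid-binding protein abundant in the lactating gland and the heart, had 8.77 and 7.57 at 49 days and 35.4 and 33 at 35 days, 4.2-fold lower (adjusted p = 0.00024). These 4 genes passed without each of the 4 arrays in turn. Glycam1, a mucin-like glycoprotein of milk, had 5.21 and 5.1 at 49 days, against 137 and 133 at 35 days, 26.2-fold lower. In other treatments at 35 days it read 0.0726 and 0.01 in oil and 0.438 and 0.0905 after DES 100 µg. The scatter of those arrays enters the SE of Glycam1 through the shared spread. Its difference of -4.71 ± 0.89 (adjusted p = 0.024) did not pass when any one of the 4 arrays was left out (adjusted p between 0.071 and 0.12).

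Of the other milk genes, 2 rose and 13 did not pass, and the list had a median difference of -0.11 against 0.08 for all features. The other members that fell were Csn1s1 and Xdh. Csn1s1, an alpha-S1 casein gene, had 606 and 538 at 49 days and 1227 and 1028 at 35 days (difference -0.98 ± 0.12, adjusted p = 0.004). Xdh, the xanthine oxidoreductase needed to secrete milk fat droplets, had 9.66 and 9.68 at 49 days, against 16.4 and 17.1 at 35 days (difference -0.79 ± 0.11, adjusted p = 0.0058). Kappa-casein and alpha-lactalbumin did not follow. Csn3 had 351 and 361 at 49 days and 173 and 252 at 35 days (difference 0.77 ± 0.24, adjusted p = 0.1). Lalba had 347 and 301 at 49 days, against 375 and 311 at 35 days (difference -0.08 ± 0.15, adjusted p = 0.82). The rises were Aqp5, a water channel of gland epithelia, with 108 and 97.2 at 49 days and 51.1 and 55.1 at 35 days (difference 0.95 ± 0.14, adjusted p = 0.0084), and Stat5a, with 150 and 145 at 49 days and 97.3 and 102 at 35 days (difference 0.56 ± 0.11, adjusted p = 0.03). Leaving out single arrays left 5 or 6 falls in the list, and no rise without the first 49-day array, against 1 without each of the other arrays.

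**Figure D1:**
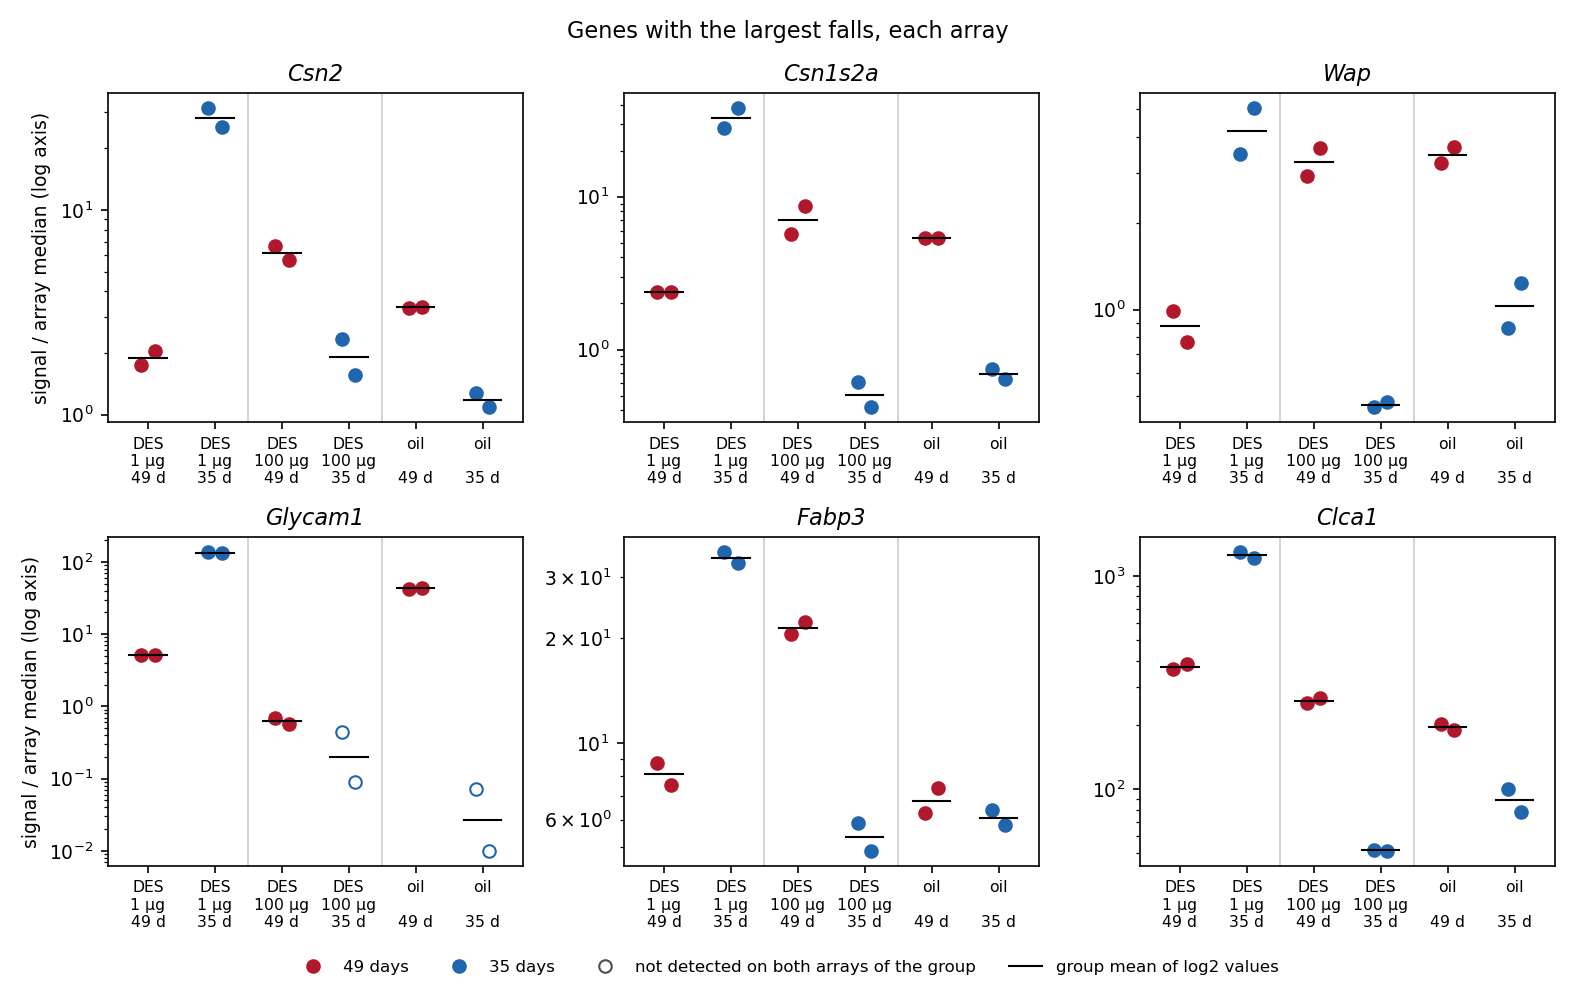
Relative signal (signal over array median, log axis) of 6 genes with large falls on each array of the 6 groups, points for arrays and lines for the mean of log2 values. After DES 1 µg both 49-day arrays lie below both 35-day arrays in all 6 genes, as with Csn2 at 1.75 and 2.04 against 31.3 and 25.4; open points mark groups in which the probe was not detected on both arrays.

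Other genes among the largest falls were an amino acid transporter, a steroid enzyme and secreted or membrane proteins. Clca1, a secreted regulator of chloride channels, had 366 and 385 at 49 days, against 1291 and 1207 at 35 days, 3.33-fold lower (adjusted p = 0.00037). Hsd11b2, which inactivates glucocorticoids, had 13.3 and 14.5 at 49 days, against 54.4 and 57.6 at 35 days, 4.03-fold lower (adjusted p = 0.00089). Slc7a3, a carrier of cationic amino acids, had 4.21 and 4.29 at 49 days and 15.7 and 19 at 35 days, 4.07-fold lower (adjusted p = 0.00083). Ages that did not overlap were a condition for picking these 3 genes, so their separation adds no support. Cdhr1, a cadherin-related protein known from photoreceptors, was 4.5-fold lower, with 1.33 and 1.43 at 49 days and 5.96 and 6.5 at 35 days. Lypd1, a membrane-anchored protein of the Ly6 family, was 3.51-fold lower, with 2.79 and 3.08 at 49 days and 10.4 and 10.2 at 35 days. All 5 passed without each array in turn, with adjusted p between 0.00015 and 0.00089 in the full fit.

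Of 28 immediate early and stress genes tested, a class that cells switch on soon after a stimulus, 12 rose at 49 days. Of all tested features, 3.68% rose. Fos, a subunit of the AP-1 transcription factor, had 35.9 and 35.6 at 49 days, against 12 and 10.2 at 35 days, 3.22-fold higher (difference 1.69 ± 0.17, adjusted p = 0.0014). Egr1, a zinc finger transcription factor, had 376 and 385 at 49 days, against 119 and 142 at 35 days, 2.93-fold higher (difference 1.55 ± 0.19, adjusted p = 0.0033). Atf3, a stress-induced transcription factor, had 17.6 and 16.9 at 49 days and 5.55 and 4.7 at 35 days, 3.38-fold higher (adjusted p = 0.00023). The ages did not overlap in any of the 3, which largely follows from the call and adds no support. Ier3, an early gene linked to cell survival, had 108 and 93.9 at 49 days, against 25.3 and 26.3 at 35 days, 3.91-fold higher (adjusted p = 0.00025). Sgk1, a kinase induced by glucocorticoids and serum, had 34.8 and 37.9 at 49 days and 14.4 and 12.4 at 35 days, 2.73-fold higher (adjusted p = 0.00087). These 5 genes passed without each array in turn.

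None of the 28 fell and 16 did not pass, and the median difference was 0.58. Ccn1, a matrix-associated protein, had 60.2 and 51.8 at 49 days and 23.1 and 22.3 at 35 days (difference 1.30 ± 0.14, adjusted p = 0.0019). Gadd45g, a growth arrest gene, had 197 and 194 at 49 days, against 63.4 and 71.9 at 35 days (difference 1.53 ± 0.19, adjusted p = 0.0035). The other five, Nr4a1, Ier2, Junb, Dnajb1 and Zfp36, had differences from 0.58 to 1.04. Leaving out any one of the 4 arrays left 7 rises in the list. With 75th percentile scaling 8 rose, and with quantile normalization 9. Members that did not pass include Jun (0.49 ± 0.16, adjusted p = 0.14), Dusp1 (-0.17 ± 0.37, adjusted p = 0.84) and Hspa1a (0.33 ± 0.14, adjusted p = 0.22). Dnajb1 and Hspa1a are both heat shock genes. The promoter of Egr1 is shown because it holds 2 CArG boxes, the motif of serum response factor, here in capitals.
Egr1 (chr18:26736828-26737127, plus strand): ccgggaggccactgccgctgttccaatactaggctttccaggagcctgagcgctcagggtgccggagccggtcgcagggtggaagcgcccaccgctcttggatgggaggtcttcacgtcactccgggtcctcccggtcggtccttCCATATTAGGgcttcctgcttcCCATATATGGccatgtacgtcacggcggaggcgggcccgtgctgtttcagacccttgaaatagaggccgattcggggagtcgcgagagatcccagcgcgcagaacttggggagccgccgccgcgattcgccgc
The boxes begin at positions -105 and -83. A CArG box was present in 7 of 151 promoters matched to rises (4.64%), 3 of 47 matched to falls (6.38%), 1.31% of those matched to all tested genes and 1.64% of all promoters in the table. Of 21 promoters matched to the immediate early and stress list, 3 held one, those of Egr1, Zfp36 and Klf6, and Klf6 did not pass. Those of Ccn1, Junb and Sgk1 held none, while that of Igf2, which fell, held one.

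**Figure D2:**
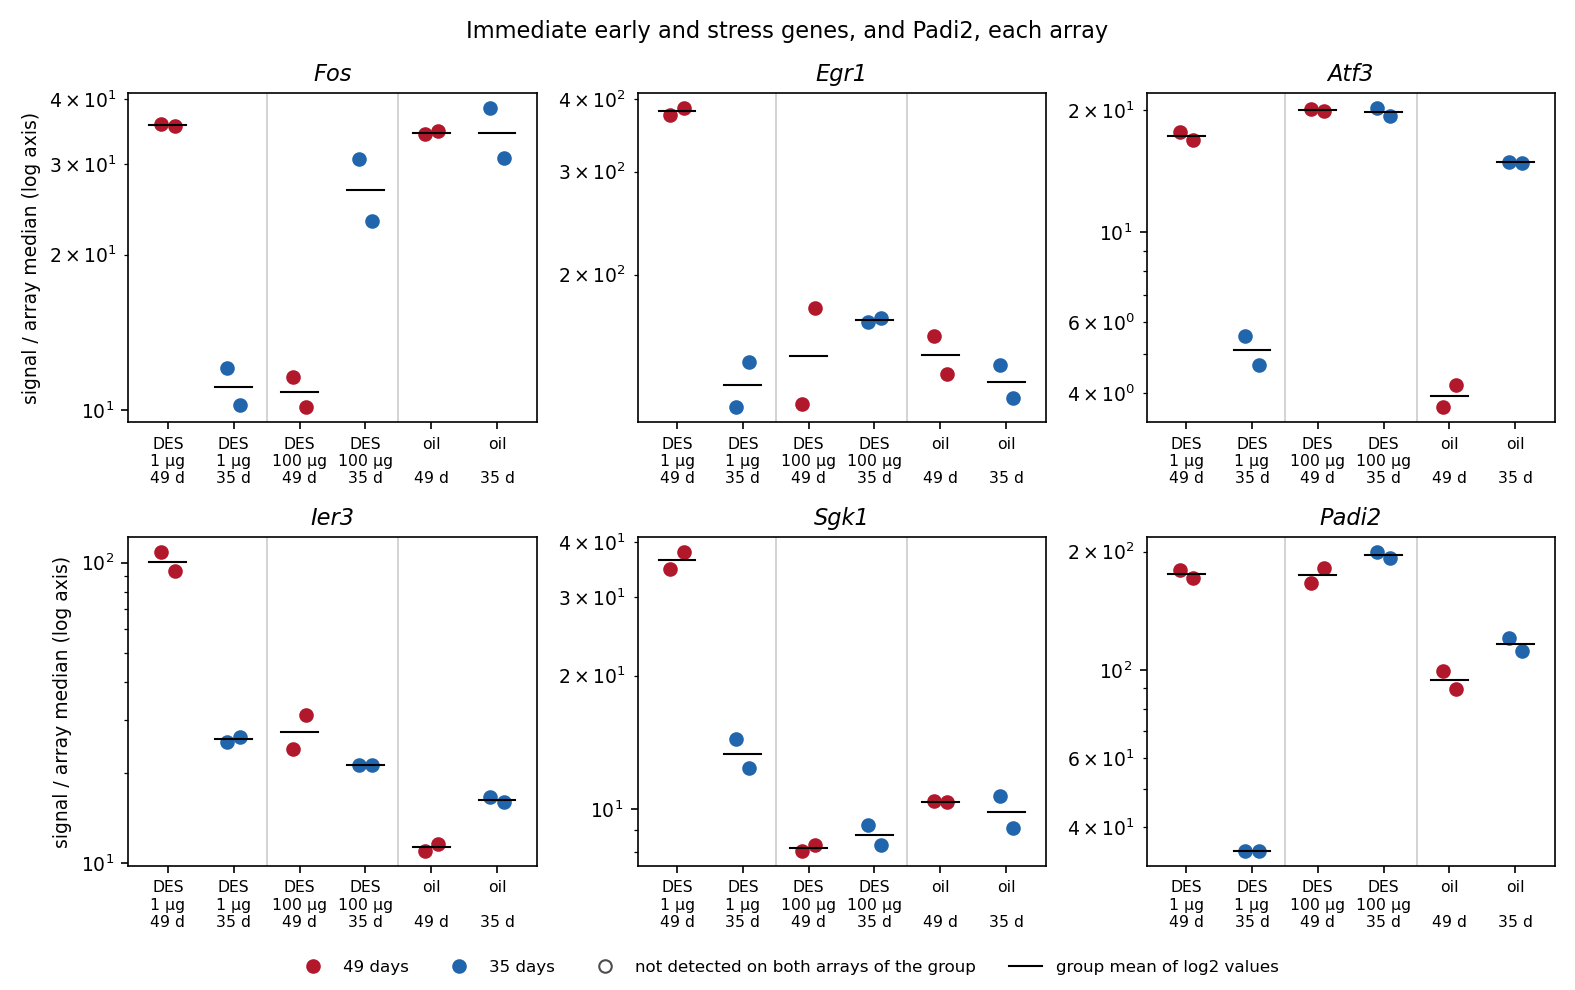
Relative signal (log axis) of 5 immediate early or stress genes and of Padi2 on each array of the 6 groups, points for arrays and lines for the mean of log2 values. After DES 1 µg the 49-day arrays lie above the 35-day arrays in all 6 genes; Egr1, Ier3 and Sgk1 are higher there than on any other array of the series, while Padi2 at 35 days after DES 1 µg, 34.9 on both arrays, is lower than on any other array.

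Acsm3 had the largest rise among genes with a symbol detected on all 4 arrays. This medium-chain acyl-CoA synthetase of mitochondria had 9.32 and 8.74 at 49 days, against 1.16 and 1.2 at 35 days, 7.63-fold higher (difference 2.93 ± 0.12, adjusted p = 4.3e-05). A second probe of Acsm3 differed by 2.83. Padi2, which converts arginine in proteins to citrulline, had 179 and 172 at 49 days and 34.9 on both 35-day arrays, 5.03-fold higher (difference 2.33 ± 0.11, adjusted p = 5.7e-05). Msln, which encodes mesothelin, had 139 and 128 at 49 days, against 32.6 and 22.7 at 35 days, 4.9-fold higher (difference 2.29 ± 0.21, adjusted p = 0.00091). The 3 were picked among genes whose ages did not overlap, so the gap between ages adds no support. Capn8, a calpain protease, had 20.1 on both 49-day arrays, against 6.26 and 5.95 at 35 days, 3.29-fold higher (adjusted p = 0.00015). Smim38 had 14.2 and 12.1 at 49 days and 4.72 and 3.19 at 35 days, 3.38-fold higher (adjusted p = 0.0034). Gcnt3, which builds branched O-linked glycans, had 1.61 and 1.8 at 49 days and 0.66 and 0.352 at 35 days, 3.52-fold higher (adjusted p = 0.0067). Its 35-day value of 0.352 lay near the lowest detected signal of that array, 0.3116, which limits the fold.

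All of these passed without each array in turn, but 2 other large rises depended on single arrays. Hpgd, which inactivates prostaglandins, had 20 and 15.7 at 49 days, against 5.42 and 3.5 at 35 days, 4.07-fold higher (adjusted p = 0.0078). It missed the threshold without the second 35-day array or the first 49-day array (adjusted p = 0.058 and 0.073). Pou3f3, a POU-domain transcription factor, had 1.86 and 1.2 at 49 days and 0.354 and 0.415 at 35 days, 3.91-fold higher (adjusted p = 0.017). It missed the threshold without any array other than the second 49-day array (adjusted p between 0.065 and 0.13). The 35-day values of Pou3f3 lay near the lowest detected signals of those arrays, 0.2565 and 0.3116, which limits the fold.

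Among hormone receptors and estrogen-responsive genes, those that passed were higher at 49 days. Pgr, the progesterone receptor, had 5.89 and 5.47 at 49 days, against 3.31 and 3.38 at 35 days, 1.69-fold higher (difference 0.76 ± 0.11, adjusted p = 0.0093). Areg, which encodes amphiregulin, had 1500 and 1575 at 49 days and 757 and 881 at 35 days, 1.88-fold higher (difference 0.91 ± 0.13, adjusted p = 0.0087). Stc2, a secreted glycoprotein induced by estrogen in human breast cancer cells, had 2.19 and 2.21 at 49 days, against 0.662 and 0.354 at 35 days, 4.54-fold higher (adjusted p = 0.0024). Stc2 passed without each array in turn. Its 35-day value of 0.354 lay near the lowest detected signal of that array, 0.3116, which limits the fold. Areg missed the threshold without either 49-day array (adjusted p = 0.059 and 0.056), and Pgr without the second 35-day or the first 49-day array (adjusted p = 0.055 and 0.084). These 3 were the rises among 8 estrogen-responsive genes tested (all features: 3.68%), of which none fell (all features: 0.84%), with a median difference of 0.23. The others, Ctsd, Igfbp4, Cxcl12, Susd3 and Wnt4, lay between -0.47 and 0.32.

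Among 12 hormone and growth factor receptors tested, 3 rose (all features: 3.68%) and none fell (all features: 0.84%), and the median was 0.10. Besides Pgr they were Prlr, the prolactin receptor, with 3.52 and 3.5 at 49 days and 2.24 and 2.54 at 35 days (difference 0.55 ± 0.12, adjusted p = 0.042), and Rarb, a retinoic acid receptor, with 6.65 and 5.34 at 49 days and 3.41 and 2.9 at 35 days (difference 0.92 ± 0.14, adjusted p = 0.011). The Prlr rise did not pass when any one array was left out (adjusted p between 0.097 and 0.19), and that of Rarb did not without the second 35-day or the first 49-day array (adjusted p = 0.077 and 0.084). Esr1, the estrogen receptor alpha gene, was not detected on both arrays of either age and was not tested.

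Of 12 duct growth factor genes tested, 2 rose, Areg and Ereg, and 1 fell, against 3.68% and 0.84% of all tested features. Ereg, which encodes epiregulin, a further ligand of the epidermal growth factor receptor, had 4.66 and 4.17 at 49 days, against 1.44 and 1.23 at 35 days, 3.31-fold higher (difference 1.73 ± 0.17, adjusted p = 0.0014, and passing without each array in turn). Igf2, an insulin-like growth factor, had 18.9 and 19.1 at 49 days and 29.3 and 30.6 at 35 days, 1.58-fold lower (difference -0.66 ± 0.12, adjusted p = 0.017). That fall did not pass when any one of the 4 arrays was left out (adjusted p between 0.051 and 0.11). Igf1 differed by 0.02 ± 0.27 and Pthlh, a duct-forming hormone, by 0.69 ± 0.20 (adjusted p = 0.98 and 0.091).

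**Figure D3:**
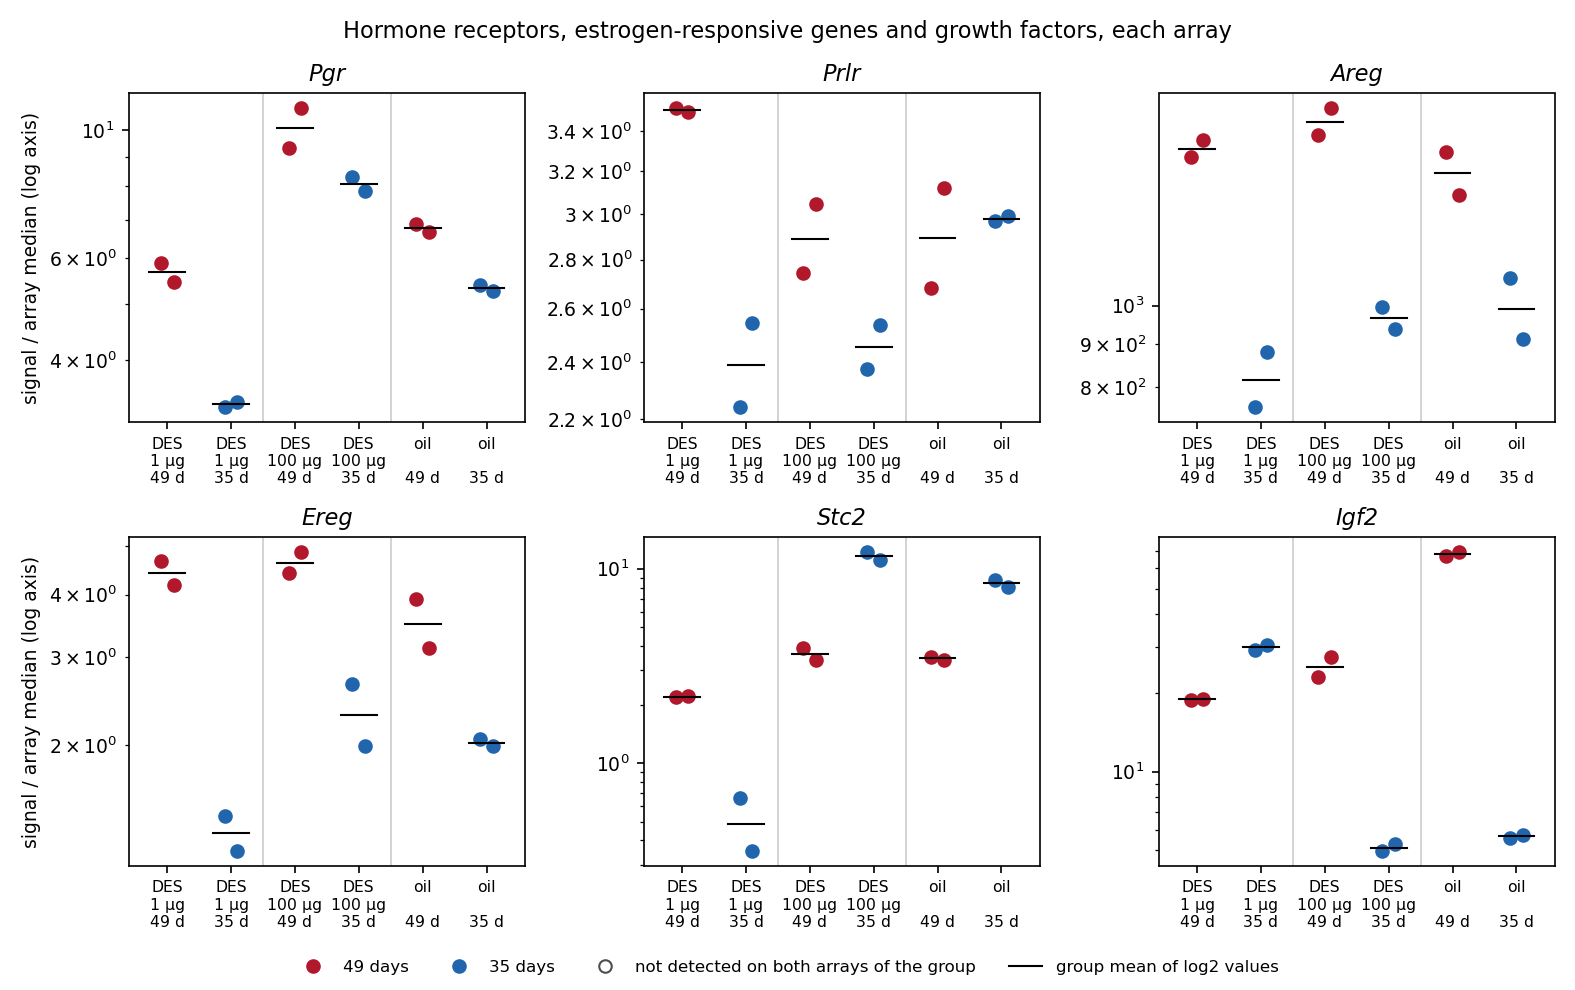
Relative signal (log axis) of Pgr, Prlr, Areg, Ereg, Stc2 and Igf2 on each array of the 6 groups, points for arrays and lines for the mean of log2 values. After DES 1 µg the first 5 genes are higher at 49 than at 35 days and Igf2 is lower (18.9 and 19.1 against 29.3 and 30.6), whereas Igf2 is higher at 49 days after DES 100 µg and oil.

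Matrix-degrading enzymes moved both ways. Mmp7, matrilysin, had 60.6 and 58.3 at 49 days and 23.9 and 33 at 35 days, 2.12-fold higher (adjusted p = 0.024). Mmp3, stromelysin 1, had 47.9 and 44.1 at 49 days, against 85.2 and 89.2 at 35 days, 1.9-fold lower (adjusted p = 0.016). They were the only calls among 11 matrix remodelling genes tested, but neither held. Among fits without 1 array, Mmp7 passed only without the second 35-day array (adjusted p = 0.04, against 0.08 to 0.14 without the others), and Mmp3 did not pass with any one array left out (adjusted p between 0.053 and 0.1). Fzd1, a Wnt receptor, was 2-fold higher, with 66.1 and 55.9 at 49 days and 35.4 and 26.1 at 35 days (adjusted p = 0.036, and 0.094 to 0.21 without any array other than the first 35-day array). Cyp1b1, which hydroxylates estrogens, was 2.32-fold higher, with 17.7 and 14.1 at 49 days and 7.88 and 5.91 at 35 days (adjusted p = 0.011, and 0.077 and 0.095 without the second 35-day and the first 49-day array). They were the calls among 11 Wnt and Notch genes and 13 genes of xenobiotic and estrogen metabolism. With 4.52% of all features called, single calls in lists of this size are not read as a change of the list.

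Markers of the cell types an end bud section can hold were read next. Their counts are to be set against the 3.68% of all tested features that rose and the 0.84% that fell. Microdissected tissue is a mixture, so fewer cells of a type and less RNA per cell cannot be told apart. Of 11 luminal epithelial markers tested, 1 fell and none rose, and their summed relative signal was 1625 to 1692 at 49 days and 1627 to 1654 at 35 days. The brightest markers lead that sum, and 3 of the 11 had differences above 0, with a median of -0.09. Epcam, an epithelial adhesion molecule, had 737 and 668 at 49 days and 567 and 576 at 35 days, and Krt19, a luminal keratin, had 402 and 400 at 49 days, against 416 and 400 at 35 days. Both epithelial genes were detected at both ages, and neither passed (adjusted p = 0.26 and 0.94). Cldn7, a tight junction claudin, had 234 and 249 at 49 days, against 354 and 382 at 35 days, 1.52-fold lower (adjusted p = 0.036, and 0.07 to 0.2 without single arrays). The luminal markers Elf3, Foxa1 and Kit were not detected on both arrays of either age.

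Of 10 basal and myoepithelial markers tested, 2 fell (all features: 0.84%), both of them genes of the contractile apparatus. Actg2, a smooth muscle actin, had 19.7 and 18.9 at 49 days, against 39 and 47.3 at 35 days, 2.22-fold lower (difference -1.15 ± 0.14, adjusted p = 0.0031, passing without each array), and its second probe differed by -0.59. Myh11, smooth muscle myosin, had 7.12 and 6.44 at 49 days and 15.7 and 12.3 at 35 days, 2.05-fold lower (adjusted p = 0.021, and 0.076 to 0.11 without the first 35-day or either 49-day array). The basal keratin Krt14 had 109 and 106 at 49 days and 101 and 109 at 35 days, with a difference of 0.04 ± 0.10 (adjusted p = 0.88) that turned negative under 75th percentile and quantile scaling. Krt5, its partner keratin, read only 0.453 and 0.559 at 49 days and 0.336 and 0.484 at 35 days (difference 0.32 ± 0.53, adjusted p = 0.79). The summed signal of the list was 403 to 434 at 49 days, against 440 to 492 at 35 days. The falls were not particular to DES 1 µg. Actg2 differed by -2.47 after DES 100 µg and -2.01 in oil, and Myh11 by -0.78 and -1.99.

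Some endothelial markers fell and some macrophage markers rose at 49 days. Over all tested features 0.84% fell and 3.68% rose. Of 10 endothelial markers tested 3 fell and none rose, with a median of -0.52 and a summed signal of 99.7 to 106 at 49 days, against 134 to 142 at 35 days. Rasip1, needed for vessel lumen formation, had 12.6 and 15.3 at 49 days and 23.5 and 26.5 at 35 days (adjusted p = 0.018). Emcn, an endothelial sialomucin, had 9.28 and 8.22 at 49 days and 14.6 on both 35-day arrays (adjusted p = 0.028), and Plvap, a protein of capillary fenestrae, had 14.3 and 14.7 at 49 days and 20.4 and 21 at 35 days (adjusted p = 0.035). Pecam1 differed by 0.03 (adjusted p = 0.93), and no endothelial marker passed without the second 35-day array or without the first 49-day array. All 14 macrophage and antigen presentation markers had differences above 0 and 3 passed, with a median of 0.50 and a summed signal of 446 to 458 at 49 days, against 307 to 314 at 35 days. The 3 were Ccl6, a macrophage chemokine, with 14.2 and 13.4 at 49 days and 7.11 and 6.83 at 35 days (adjusted p = 0.0021, and passing without each array), Fcgr2b, an inhibitory Fc receptor (difference 0.73 ± 0.10, adjusted p = 0.0072), and Cd74, the invariant chain of class II antigen presentation (difference 0.65 ± 0.10, adjusted p = 0.012). Only Ccl6 passed without the second 35-day or the first 49-day array. The share of differences above 0 over all tested features was not counted. After DES 100 µg the macrophage list had a similar median age difference, 0.40, and in oil -0.27. No member of the list differed in its age change between the 2 doses.

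The remaining cell type lists held few calls, where 3.68% of all tested features rose and 0.84% fell. Of 19 fibroblast and collagen markers tested 2 rose, with a median of 0.36 and a sum of 3570 to 4027 at 49 days and 3329 to 3336 at 35 days. They were Mgp, an inhibitor of calcification, with 398 and 349 at 49 days and 210 and 211 at 35 days (adjusted p = 0.011, and 0.069 and 0.095 without the second 35-day and the first 49-day array), and Ogn, a small matrix proteoglycan, with 10.3 and 12.1 at 49 days and 5.96 and 6.02 at 35 days (adjusted p = 0.013, and 0.051 to 0.083 without any one array). Cidec and Slc2a4, a fat droplet protein and the insulin-responsive glucose transporter, were the 2 rises among 14 adipocyte markers, with differences of 0.74 ± 0.14 and 0.58 ± 0.13 (adjusted p = 0.025 and 0.037), and neither passed when any one array was left out. The adipocyte sum was 1089 to 1110 at 49 days and 812 to 934 at 35 days. Alas2, the first enzyme of heme synthesis in red cell precursors, had 1.55 and 1.51 at 49 days, against 6.24 and 6.83 at 35 days, 4.28-fold lower (difference -2.10 ± 0.14, adjusted p = 0.00023, passing without each array). Ahsp, a hemoglobin chaperone and the only other red cell marker tested, differed by -0.61 (adjusted p = 0.22). Il2rb, an interleukin receptor chain, fell among 7 lymphocyte markers (difference -0.96 ± 0.16, adjusted p = 0.014, and 0.061 to 0.084 without the first 35-day or either 49-day array), with Cd3e, Cd4 and Cd8a not detected on both arrays of either age. Prph, an intermediate filament of peripheral nerve, rose among 5 nerve markers (difference 1.13 ± 0.19, adjusted p = 0.014, and 0.057 to 0.095 without the same arrays). None of 7 mast cell and granulocyte or 6 skeletal muscle markers passed. The part of these shifts in the other results was not tested.

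Cell cycle genes did not move as a group, with 1 fall and no rise among 36 tested (4.52% of all features were called) and a median of -0.09. The fall was Ndc80, a kinetochore subunit, with 2.07 and 1.51 at 49 days, against 3.67 and 3.04 at 35 days (difference -0.92 ± 0.18, adjusted p = 0.028, and 0.077 to 0.14 without any array other than the first 49-day array). Of 20 interferon response genes tested, 1 rose, Zbp1, a nucleic acid sensor, with 0.894 and 0.834 at 49 days and 0.401 and 0.473 at 35 days (adjusted p = 0.035, and 0.11 to 0.19 without single arrays). Irf7, a regulator of interferon genes, had 11.9 and 11.3 at 49 days and 13.4 and 14.8 at 35 days (difference -0.28 ± 0.14, adjusted p = 0.28), and the chemokine gene Cxcl10 had 0.534 and 0.794 at 49 days and 1.17 and 1.57 at 35 days (difference -1.06 ± 0.38, adjusted p = 0.16). No member passed among 26 fatty acid and cholesterol synthesis, 21 endoplasmic reticulum folding, 17 DNA damage and p53, 12 DNA methylation and chromatin, or 47 oxidative phosphorylation genes, whose medians lay between -0.08 and 0.20. Of 46 ribosomal protein genes, Rpl9 alone passed (difference 0.68 ± 0.12, adjusted p = 0.021), with its probe saturated on 1 of the 35-day arrays, and the call was lost with any one array left out (adjusted p between 0.053 and 0.15) and under quantile normalization, where no ribosomal protein gene passed.

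**Figure D4:**
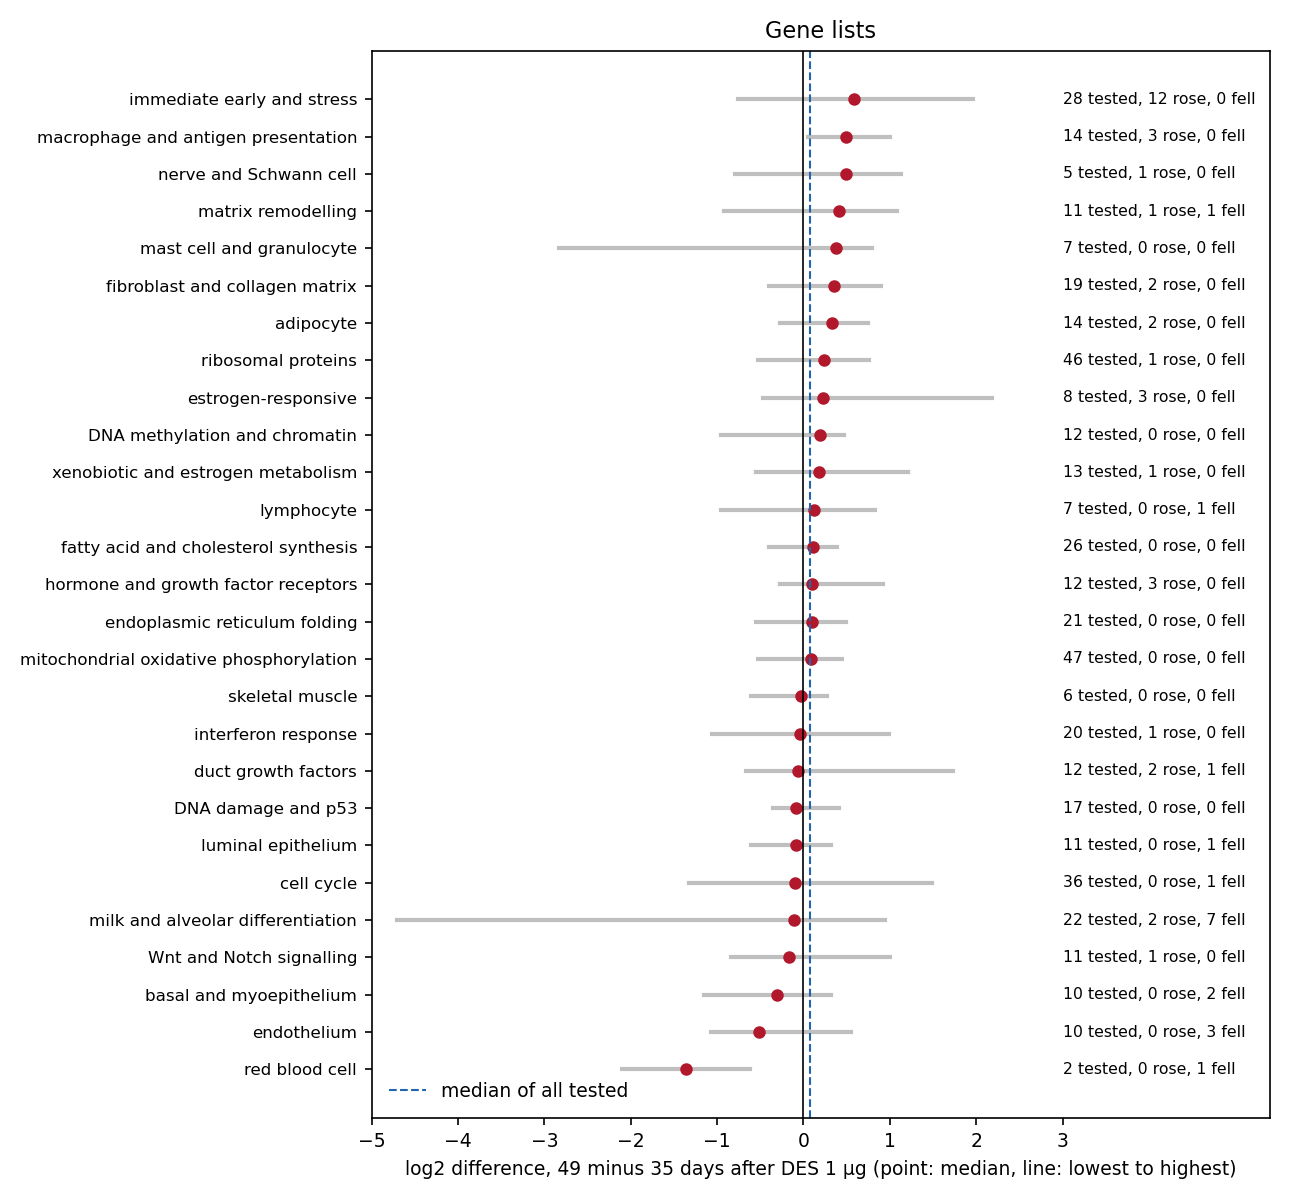
Log2 differences (49 minus 35 days after DES 1 µg) of the 27 gene lists, with a point at each list's median, a line between its lowest and highest member and the numbers tested, risen and fallen at the right. The immediate early and stress list has the highest median, 0.58, and the milk list reaches lowest, to -4.71, while the dashed line marks the median of all tested features, 0.08.

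Some genes were detected at one age only, which gives a bound in place of a fold. Each entered the test through its brighter age alone and was picked among genes that passed, so its adjusted p is no separate support. The bound sets the brighter age against, on each dimmer array, the lowest detected signal or the probe's own signal, whichever was higher. An undetected probe can read above the lowest detected signal, as Cxcl2 did. The words at least therefore hold by this rule only and give no strict limit. Abcc8, the sulfonylurea receptor subunit of potassium channels, had 1.07 and 0.842 at 49 days and was not well above background at 35 days, at least 3.36-fold higher (adjusted p = 0.0084). Dgkb, a diacylglycerol kinase, with 0.881 and 1.28 at 49 days, was at least 3.76-fold higher (adjusted p = 0.026), Prg4, lubricin, at least 3.82-fold (adjusted p = 0.012) and Asic2, an acid-sensing channel, at least 2.82-fold (adjusted p = 0.0033). In the other direction, Cxcl2, a neutrophil chemokine, had 1.48 and 1.64 at 35 days and was not well above background at 49 days, at least 3.47-fold lower (adjusted p = 0.00082), where its own signals of 0.388 and 0.522 at 49 days set the bound. Fgg, a fibrinogen chain, was at least 2.87-fold lower (adjusted p = 0.0012), Insl6, a relaxin-like peptide, at least 2.61-fold (adjusted p = 0.018) and Kcnq1, a potassium channel, at least 2.25-fold (adjusted p = 0.028). Asic2, Cxcl2 and Fgg passed without each array in turn. Abcc8 missed the threshold without the first 49-day array (adjusted p = 0.073), Dgkb without either 49-day array (0.11 and 0.13) and Insl6 without either 35-day array (0.059 and 0.11). Prg4 missed it without any array other than the first 35-day array (0.058 to 0.084), and Kcnq1 without any other than the second 49-day array (0.061 to 0.17).

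The change with age was then set against that in the other treatments. The test is of the difference itself, the age difference after DES 1 µg minus that after DES 100 µg or oil. Against DES 100 µg, 293 of 12194 features differed (2.4%), 166 with a higher (1.36%) and 127 with a lower (1.04%) age difference after DES 1 µg. The 49-day arrays numbered 2 of both doses shared a scan day, as did the 35-day arrays numbered 2. From those 4 arrays alone, which also entered the fit and so are no separate check, the difference was -5.51 for Csn2, -8.37 for Csn1s2a, 3.002 for Fos and 1.38 for Egr1. Blocking on scan day, limma called 0 features, against 1723 at an unadjusted p below 0.05. Leaving out single arrays gave 112 to 330 calls. They were 126 without the second 35-day array of DES 1 µg, 121 and 147 without its first and second 49-day arrays, 112 and 125 without the first and second 35-day arrays of DES 100 µg, and 118 without the second 49-day array of that dose. Without the oil arrays at 49 days 192 features differed. Against oil, 2599 of 11988 features differed (21.7%), 1186 higher (9.89%) and 1413 lower (11.8%), and leaving out single arrays gave 899 to 3108, a fall by over 1.5 times for every array other than the first 35-day array of DES 1 µg and the second 35-day oil array. The oil arrays at 49 days enter that second test directly, and their low signal moves with it, so its values are given here for few genes.

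These milk genes changed in opposite directions after the 2 doses. Csn2 had 6.69 and 5.69 at 49 days after DES 100 µg, against 2.34 and 1.56 at 35 days, and 3.32 and 3.37 at 49 days in oil, against 1.28 and 1.09 at 35 days. Its highest values in the series were the 31.3 and 25.4 at 35 days after DES 1 µg. The age difference after DES 1 µg was lower than after DES 100 µg (difference -5.59 ± 0.30, adjusted p = 0.00013) and lower than in oil (difference -5.40 ± 0.30, adjusted p = 0.00014). For Csn1s2a the difference from DES 100 µg was -7.59 ± 0.35 and that from oil -6.74 ± 0.35 (adjusted p = 8.7e-05 and 0.00012), with 5.7 and 8.74 at 49 days and 0.61 and 0.42 at 35 days after DES 100 µg. Wap differed by -5.07 ± 0.34 from DES 100 µg and by -4.002 ± 0.34 from oil (adjusted p = 0.00034 and 0.00077). Clca1 had 253 and 266 at 49 days after DES 100 µg and 51.9 and 51.2 at 35 days, and its age difference after DES 1 µg was lower (difference -4.07 ± 0.19, adjusted p = 8.7e-05). Fabp3 (-4.06 ± 0.21), Alas2 (-3.55 ± 0.20) and Igf2 (-2.96 ± 0.16) also had lower age differences, with adjusted p between 0.00012 and 0.00014, and these 3 were higher at 49 than at 35 days after DES 100 µg. In the milk list, 7 of 22 genes had a lower age difference than after DES 100 µg (all features: 1.04%) and none a higher one. For Igf2 the difference from oil was -4.25 ± 0.16 (adjusted p = 2.9e-05), with 67.1 and 69.3 at 49 days and 5.57 and 5.75 at 35 days in oil.

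For several genes the age difference was higher after DES 1 µg than after DES 100 µg. After DES 100 µg Rgs4, Stc2, Smim38, Pls1 and Fos fell, with age differences of -3.92, -1.68, -1.30, -1.74 and -1.30. Those of Egr1 and Atf3 at that dose were -0.21 and 0.02. Rgs4, a regulator of G-protein signalling, had 0.987 and 1.34 at 49 days and 0.837 and 0.906 at 35 days after DES 1 µg, a difference of 0.40 ± 0.21 that did not pass (adjusted p = 0.31). After DES 100 µg it had 1.08 and 0.791 at 49 days and 14.3 and 13.6 at 35 days, and the contrast was 4.31 ± 0.29 (adjusted p = 0.00036). Its high values in these 8 arrays were the 35-day ones after DES 100 µg. Stc2 had 3.9 and 3.38 at 49 days after DES 100 µg and 12.2 and 11.1 at 35 days, and its age difference after DES 1 µg was higher than that by 3.86 ± 0.35 (adjusted p = 0.0017) and than that in oil by 3.46 ± 0.35 (adjusted p = 0.0016). Smim38 was higher by 3.06 ± 0.30 (adjusted p = 0.0027) and Pls1, an actin-bundling protein, by 3.04 ± 0.28 (adjusted p = 0.0017). Pls1 had 1.68 and 1.35 at 49 days and 0.673 and 0.55 at 35 days after DES 1 µg (difference 1.31 ± 0.20, adjusted p = 0.0091, and 0.072 and 0.081 without the second 35-day and the first 49-day array). Of the immediate early and stress list, 10 of 28 genes had a higher age difference than after DES 100 µg (all features: 1.36%) and none a lower one. Fos differed by 2.99 ± 0.24 (adjusted p = 0.00085), Egr1 by 1.76 ± 0.27 (adjusted p = 0.016, and 0.057 to 0.063 without either 35-day array of DES 100 µg or either 49-day array of DES 1 µg) and Atf3 by 1.74 ± 0.17 (adjusted p = 0.0023). Atf3 at 49 days after DES 1 µg was near its level after DES 100 µg, where both ages read between 19.4 and 20.2. Among the DES arrays its 35-day values after DES 1 µg were the low ones, while oil at 49 days read lower still (3.7 and 4.19). Egr1 and Sgk1 instead were high at 49 days after DES 1 µg, with 34.8 and 37.9 for Sgk1 against 8.06 to 10.7 on the 8 arrays of the other treatments.

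Among the named genes detected on all 8 arrays of DES 1 µg and oil, Hpgd had the largest positive difference from oil, at 4.76 ± 0.41 (adjusted p = 0.0008), with 3.03 and 3.08 at 49 days and 23.5 and 17.6 at 35 days in oil. Areg and Pgr did not differ in their age change from DES 100 µg by a detectable amount (0.14 ± 0.19 and 0.44 ± 0.16, adjusted p = 0.73 and 0.2), and both were higher at 49 days on average in all 3 treatments. Acsm3 was likewise higher at 49 days in all 3, with 1.39 and 1.61 at 49 days and 0.55 and 0.542 at 35 days after DES 100 µg, but its change after DES 1 µg exceeded that by 1.48 ± 0.17 (adjusted p = 0.0048). After DES 100 µg 6.13% of features passed between the ages (4.54% rose and 1.59% fell), and in oil 43.8% (28.7% rose and 15.2% fell). Over all features, 111 of the 429 rises after DES 1 µg also rose after DES 100 µg, which is 25.9% of the first list and 20.5% of the second, and 22 fell. Of the 98 falls, 19 also fell after DES 100 µg and 20 rose. Among all tested features, 51.4% had the same sign of age difference after both doses.

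**Figure D5:**
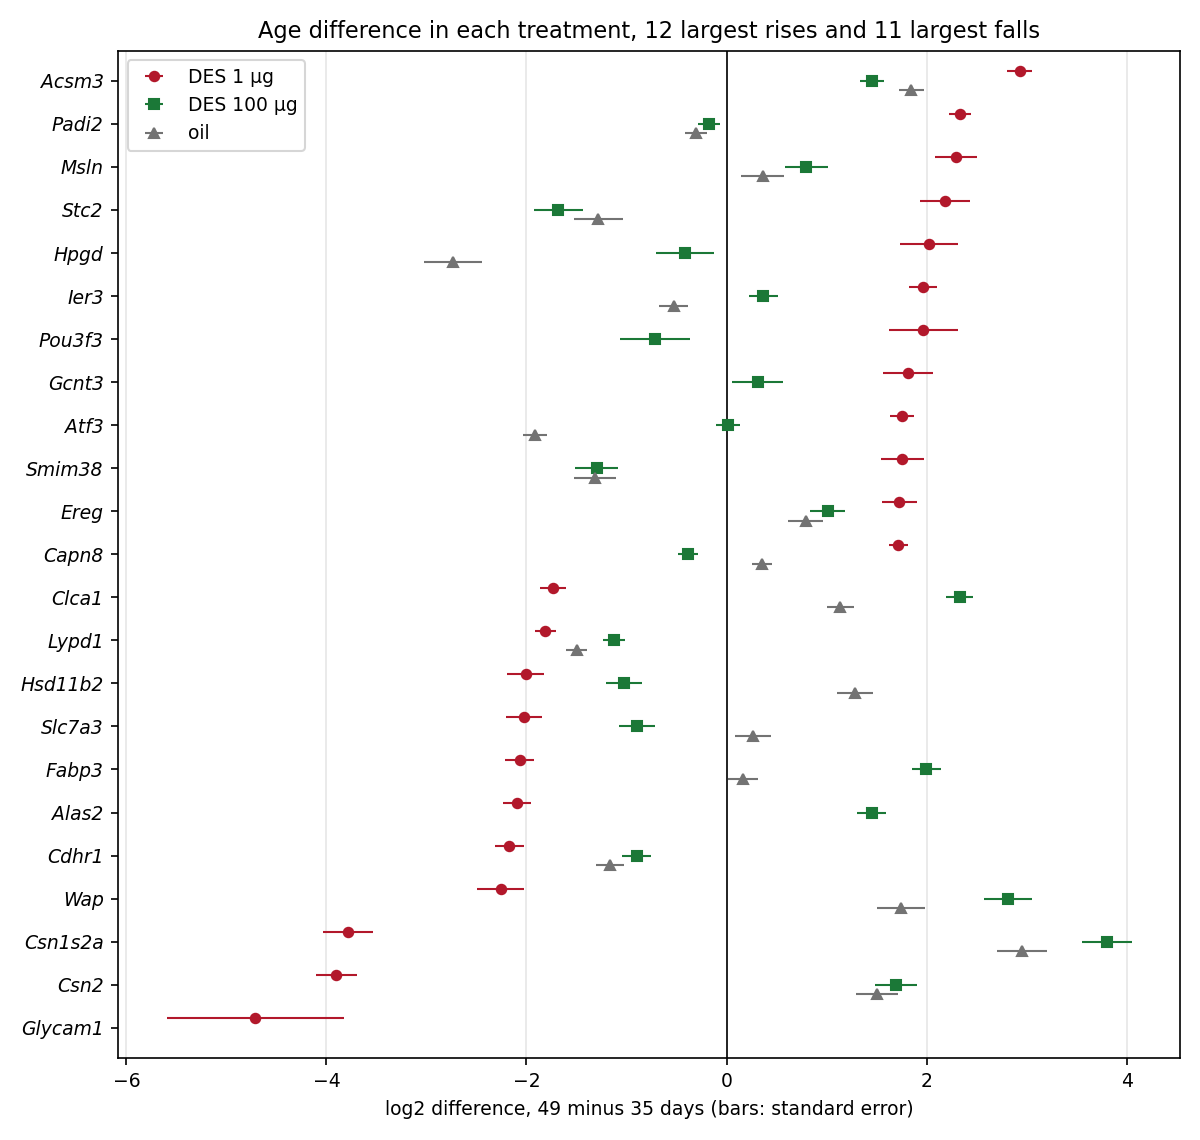
Log2 difference, 49 minus 35 days, with its standard error for the 12 largest rises and 11 largest falls after DES 1 µg, beside the difference of the same probe after DES 100 µg and in oil. Csn2, Csn1s2a, Wap and Clca1 lie left of 0 after DES 1 µg and right of 0 after DES 100 µg and in oil; treatments in which the probe was not detected on both arrays of both ages have no point.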

How the data were processed

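The deposited value table holds, per the labels and file headers, the signal intensity of each probe as Agilent Feature Extraction 9.1.3.1 gave it, the version per the submitters' processing notes. It differed from the processed signal of the 10 scanner files by at most 0.497%. The authors' deposited normalized table gives, per the file headers, detection calls and each group's normalized value, which behaves as a ratio of the median-scaled signal to the mean of that probe in oil at 35 days. Of 69538 such ratios, 99.99% lay within 0.05 log2 of the ratios recomputed here. No source used here names a genome build. From the 20499 probes that are not controls, each signal was divided by its array's median, floored at 0.01 of it and taken to log2. Symbols came from RefSeq, by accession for 6587 probes, symbol for 2421 and older symbol for 688, leaving 10803 unnamed. Features were fitted with limma 3.58.1 in R 4.3.3 over 6 groups of 2 arrays (6 residual degrees of freedom, Benjamini-Hochberg adjustment over all tested features). The probe kept for a gene was that with the highest mean, and the fit was tested on simulated data. The number of arrays limits the precision. P-values measure the spread between the 2 arrays of a group, which differ in animal and, where known, in scan day. They speak for these animals only.

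Named genes were the 12 largest rises and 12 largest falls detected on all 4 arrays with ages not overlapping, the 4 largest bounds each way, up to 3 passing members of each of 27 lists, the 4 largest each way of the differences between treatments, and 15 genes named whatever their values. One of the falls is not reported here. Further list members are given to show a list's spread and were chosen after their values were seen. The members and lists were chosen with earlier results of these data known. Replicate numbers name different animals, so samples were not paired. Alternatives covered scaling, filters, floors, probe choice, background correction, scan day, array signal, and leaving out arrays.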

Additional observations from a re-analysis of the deposited data

Results flagged for a closer look

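Among named genes detected on all 8 arrays of a comparison, the age difference (49 minus 35 days, log2) of 31 differed between DES 1 µg and DES 100 µg, and that of 38 between DES 1 µg and oil, by limma's test of the difference itself. Against oil, values are given for the 12 of those 38 that were named whatever their values or for the size of that difference. Each value below is the age difference after DES 1 µg minus that in the other treatment. A higher age difference can thus be a smaller fall, as for Actg2, which fell after both doses.

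Against DES 100 µg, the age difference after DES 1 µg was higher for Acsm3 (1.48), Padi2 (2.50), Msln (1.49), Stc2 (3.86), Hpgd (2.44), Ier3 (1.60), Pou3f3 (2.68), Atf3 (1.74), Smim38 (3.06), Capn8 (2.10), Actg2 (1.31), Sgk1 (1.54), Slc2a4 (0.98), Prph (2.53), Rgs4 (4.31), Pls1 (3.04), Fos (2.99) and Egr1 (1.76). It was lower for Csn2 (-5.59), Csn1s2a (-7.59), Wap (-5.07), Cdhr1 (-1.27), Alas2 (-3.55), Fabp3 (-4.06), Clca1 (-4.07), Cldn7 (-0.91), Il2rb (-2.02), Rasip1 (-1.42), Plvap (-0.87), Igf2 (-2.96) and Mmp3 (-1.12). Of these 31 calls, 20 held without each of the 8 arrays in turn. Those of Msln, Hpgd, Pou3f3, Cdhr1, Cldn7, Actg2, Rasip1, Plvap, Slc2a4, Mmp3 and Egr1 did not, with adjusted p from 0.05 to 0.15 where they were lost.

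Against oil, the age difference was higher for Stc2 (3.46), Hpgd (4.76), Atf3 (3.68), Smim38 (3.07), Prlr (0.60), Fos (1.68), Egr1 (1.40) and Irf7 (1.75). It was lower for Csn2 (-5.40), Csn1s2a (-6.74), Wap (-4.002) and Igf2 (-4.25). Of these 12, Prlr did not hold when any one array was left out (adjusted p between 0.057 and 0.15). The oil arrays at 49 days have the lowest signal of the series, and its part in these values was not tested.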

How the results depend on the processing

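For the change with age after DES 1 µg, 527 calls became 2048 with array signal as a covariate, 64 with normexp background correction on median signals (17 rises and 47 falls), 54 with its 4 arrays alone, 0 with scan day as a block and 126 to 354 with single arrays left out. The other settings gave 363 to 776, with 776 under a replicate block, although same-numbered arrays come from different animals (correlation of deviations 0.157 between the 2 ages of DES 1 µg, and -0.171 to 0.471 over the 15 pairs of groups). The difference from DES 100 µg, 293 calls, became 192 without the oil arrays at 49 days, 457 with 75th percentile scaling, 464 with quantile normalization, 1471 with the covariate, 458 with a trended robust prior, 108 with normexp and 0 with scan day as a block, and 112 to 330 with single arrays left out. The difference from oil, 2599 calls, became 1313 with the covariate and 1693 with no filter on dim probes, and 899 to 3108 with single arrays left out. The replicate block gave 415 and 3275 for these differences. Why the counts move was not tested.

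Of 63 named genes called, 59 were called with 75th percentile scaling, 61 with quantile normalization, 22 with normexp, 23 with the 4 arrays alone and 0 with scan day as a block, and none changed direction in any setting run. Krt14, which did not pass, turned to -0.0781 with 75th percentile scaling, -0.0221 with the covariate, -0.19 with normexp, -0.0582 with quantile normalization, -0.0736 with scan day as a block and between -0.0181 and 0.092 with single arrays left out, negative without the first 35-day array. Krt5, which also did not pass, turned to -0.0204 with the covariate and -0.89 with scan day as a block. The normexp setting was added after seeing the data, since the mean signal it was planned on is not a column of the scanner files. Signal near background limits probes such as those of Krt5, Stc2, Gcnt3 and Pou3f3.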
